A study of Mus musculus with 20 samples.

Results

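The Nodal pathway genes described here are the ligand gene Nodal, the co-receptor gene Tdgf1, the inhibitor genes Lefty1, Lefty2 and Smad7, and the nuclear effector genes Smad2, Smad3 and Foxh1. Their accessible regions were all listed ATAC-seq peaks that overlapped 1 of the 8 genes in the GENCODE M21 annotation or lay within 50000 bp of it. This gave 117 of 102373 peaks in the genome build GRCm38, called the member peaks. Because Lefty1 and Lefty2 are neighbours on chromosome 1, 12 of the 117 peaks lay in both of their windows, and the 8 windows held 129 pairs of a gene and a peak. No measured value was used to choose the peaks.

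Accessible DNA was mapped by ATAC-seq, which uses a transposase to tag open chromatin, in the mouse embryonic stem (ES) cell line ZHBTc4, to follow chromatin accessibility through the cell cycle when OCT4 is lost at mitosis. There were 20 samples in 10 groups of 2 replicates. The peaks of 16 samples, those treated with doxycycline (dox) for 40 h, were merged into 1 list of coordinates, and the 4 unsorted samples without dox did not enter it. In ZHBTc4 both Pou5f1 alleles, which encode OCT4, are inactivated and a Tet-Off transgene supplies OCT4, so that dox removes it. All samples carried YPet-MD, a fluorescent reporter of the cell cycle made with a mitotic degron (MD), and a lentiviral OCT4 driven by the PGK promoter. In the MD-OCT4 groups, this was SNAP-MD-OCT4, whose degron removes the protein as cells leave mitosis. In the MD*-OCT4 groups it was SNAP-MD*-OCT4, whose degron is mutated and inactive. For each construct the dox-treated cells were sorted by phase. The groups EG1 and LG1 hold cells of early and of late G1, S holds S phase and SG2 holds late S/G2 cells, and the noDOX cells were not sorted. Cells were grown in serum with LIF and 2 inhibitors (2i, CHIR99021 and PD184352), and each line was a sorted population selected for similar SNAP and YPet levels.

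A listed peak marks a region called accessible in at least 1 of the dox-treated samples. The list gives no height, count or sample, so depth is unknown, no replicate error can be given, and neither the constructs nor the phases were compared. It cannot be told whether a region was accessible in many cells or in few. It was not established that the list holds every merged peak, so the absence of a listed peak is not evidence of closed chromatin. As a check of the cell type, a listed peak lay at most 1000 bp from the 5′ end of 6 of 8 ES cell marker genes, as it did for 66.1% of 21938 protein-coding genes. The exceptions were Nanog, whose nearest peak was 1481 bp away, and Esrrb, 4663 bp away. Of 5 fibroblast markers, 3 had such a peak (Col1a1, Thy1 and Pdgfrb) and Col1a2 and Postn had none. With so few genes, and with such a peak at 66.1% of all genes, the check cannot tell these cell types apart. The paper describes culture on gelatin-coated dishes and mentions no feeder cells.

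Nodal is a secreted ligand of the TGF-β family. It binds activin receptors together with the co-receptor CRIPTO, the product of Tdgf1, and the receptors phosphorylate SMAD2 and SMAD3, which enter the nucleus with SMAD4 and are brought to DNA by partners such as FOXH1. Nodal, Lefty1 and Lefty2 are themselves direct targets, and the LEFTY proteins and SMAD7 restrain the signal, so the pathway holds both positive and negative feedback. In ES cells it is active at a basal level and is required for the primed rather than the naive state.

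The sequences shown next carry the matches to motifs of the pathway's own DNA-binding partner and of OCT4. They are the peak regions with a FOXH1 match or with an OCT match, and the Nodal peak next to its FOXH1 peak. They were chosen after the matches were known, and all lie outside exons. FOXH1 was searched as TGTGGATT or TGTGTATT, SMAD as CAGAC (the short SMAD motif), TCF as ATCAAAG and OCT as ATGCAAAT, all on both strands. Capitals mark these matches, so that a match on the minus strand reads as its reverse complement, AATCCACA for example. In the Lefty2 sequence they also mark a match with 3 mismatches to the composite OCT4::SOX2 motif, described further on. Matches are exact unless stated, and the sequences were read from the RefSeq copy of GRCm38.p6, plus strand.
Upstream of Lefty2 with FOXH1, SMAD and OCT4::SOX2-like matches, chr1:180888674-180888973, plus strand: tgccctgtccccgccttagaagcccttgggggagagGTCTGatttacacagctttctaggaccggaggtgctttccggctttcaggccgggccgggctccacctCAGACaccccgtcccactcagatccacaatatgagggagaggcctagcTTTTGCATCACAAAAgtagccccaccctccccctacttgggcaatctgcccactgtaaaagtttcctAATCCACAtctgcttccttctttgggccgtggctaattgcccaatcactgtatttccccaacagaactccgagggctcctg
Upstream of Nodal with a FOXH1 match, chr10:61405520-61405819, plus strand: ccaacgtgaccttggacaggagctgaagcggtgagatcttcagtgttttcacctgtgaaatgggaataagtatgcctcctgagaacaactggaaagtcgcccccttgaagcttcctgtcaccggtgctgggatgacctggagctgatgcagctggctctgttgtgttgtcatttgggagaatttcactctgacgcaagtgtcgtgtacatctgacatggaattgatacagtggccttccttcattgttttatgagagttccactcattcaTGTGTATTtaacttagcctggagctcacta
Next peak upstream of Nodal with TCF and SMAD matches, chr10:61406107-61406322, plus strand: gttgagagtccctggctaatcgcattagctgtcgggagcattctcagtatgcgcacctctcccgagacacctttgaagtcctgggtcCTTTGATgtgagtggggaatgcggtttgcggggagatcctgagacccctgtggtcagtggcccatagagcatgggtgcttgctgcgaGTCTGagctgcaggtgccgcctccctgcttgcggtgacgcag
Smad3 intron with a FOXH1 match, chr9:63726100-63726398, plus strand: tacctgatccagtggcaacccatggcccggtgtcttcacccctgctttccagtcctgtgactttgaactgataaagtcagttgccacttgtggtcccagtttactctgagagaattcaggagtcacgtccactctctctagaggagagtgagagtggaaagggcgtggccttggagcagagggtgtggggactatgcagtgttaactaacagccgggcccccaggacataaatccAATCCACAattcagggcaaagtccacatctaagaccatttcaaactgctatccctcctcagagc
Smad3 intron with OCT and SMAD matches, chr9:63741965-63742264, plus strand: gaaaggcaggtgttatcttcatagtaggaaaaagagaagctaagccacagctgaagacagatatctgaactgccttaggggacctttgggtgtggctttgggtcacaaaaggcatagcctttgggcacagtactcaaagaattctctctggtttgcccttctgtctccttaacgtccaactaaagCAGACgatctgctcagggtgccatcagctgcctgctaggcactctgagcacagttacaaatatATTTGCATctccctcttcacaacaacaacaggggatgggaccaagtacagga

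The 117 peaks covered 69075 bp, with widths of 147 to 1654 bp. Their median width was 551 bp, against 415 bp for all listed peaks. They were also richer in G and C, with a median of 54.2% against 50.1%. Of the 117, 40 (34.2%) lay within 1000 bp of an annotated transcription start site (TSS) and are called promoter-proximal, whereas 25.1% of all listed peaks did. Only 13 of these 40 were near a TSS of a Nodal pathway gene and 27 were near a TSS of other genes alone. The difference in width was seen among distal and not among promoter-proximal peaks. The 77 distal peaks had a median width of 483 bp and 53.1% GC against 352 bp and 48.6% for all distal peaks. The promoter-proximal peaks had a median width of 810.5 bp, against 815 bp for all. Peaks centred in intergenic sequence made up 54.5% of the distal member peaks and 45% of all distal peaks, and intronic ones 33.8% and 48%. This difference came largely from Smad7, which gave 22 of the 77 distal member peaks, most of them intergenic. Among the distal peaks of the other genes, intergenic peaks were about as frequent as intronic ones. These are descriptions of 1 list, with no test.

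**Figure D1:**
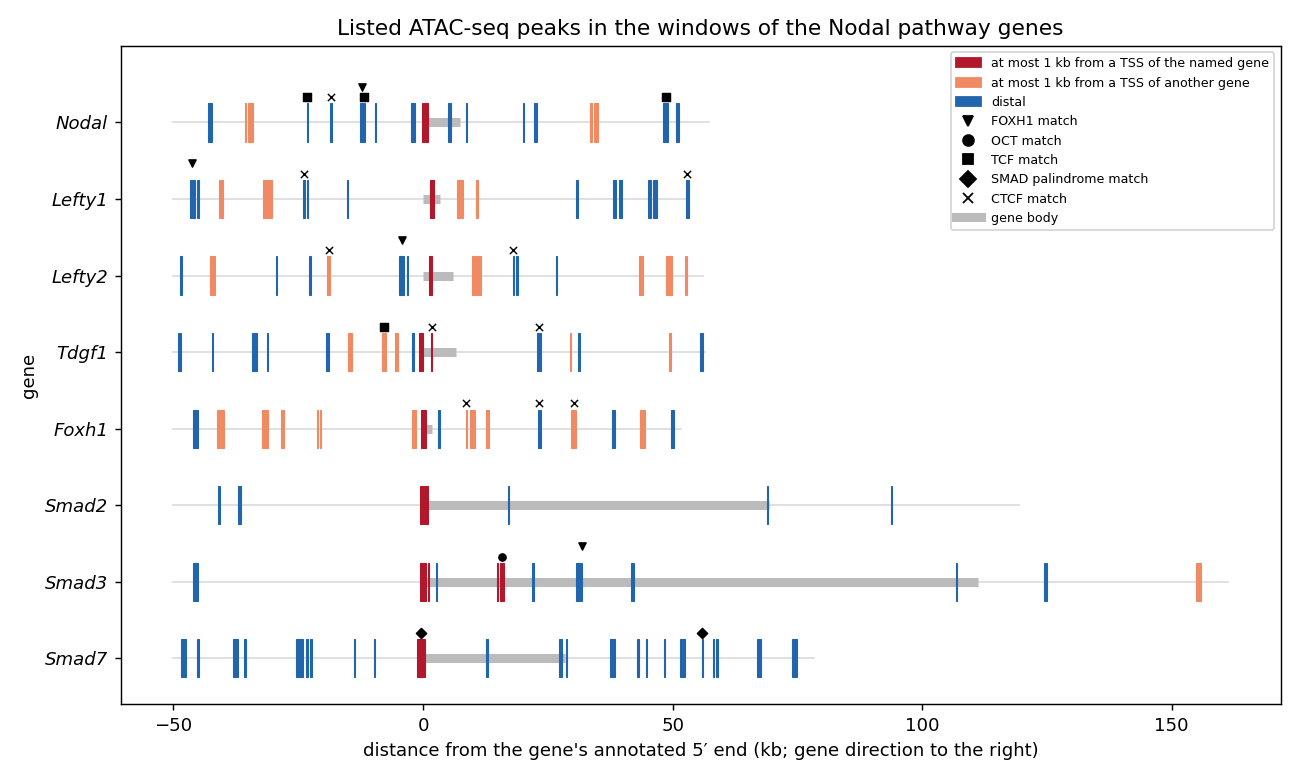
Positions of the listed peaks (bars, drawn to width) against the annotated 5′ end of each gene, in kb with the direction of transcription to the right; the grey line is the searched window and symbols mark motif matches in the central 300 bp. Nodal, Lefty1, Lefty2, Tdgf1, Foxh1 and Smad7 had 16 to 23 peaks each, and Smad2 had 6.

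**Figure D2:**
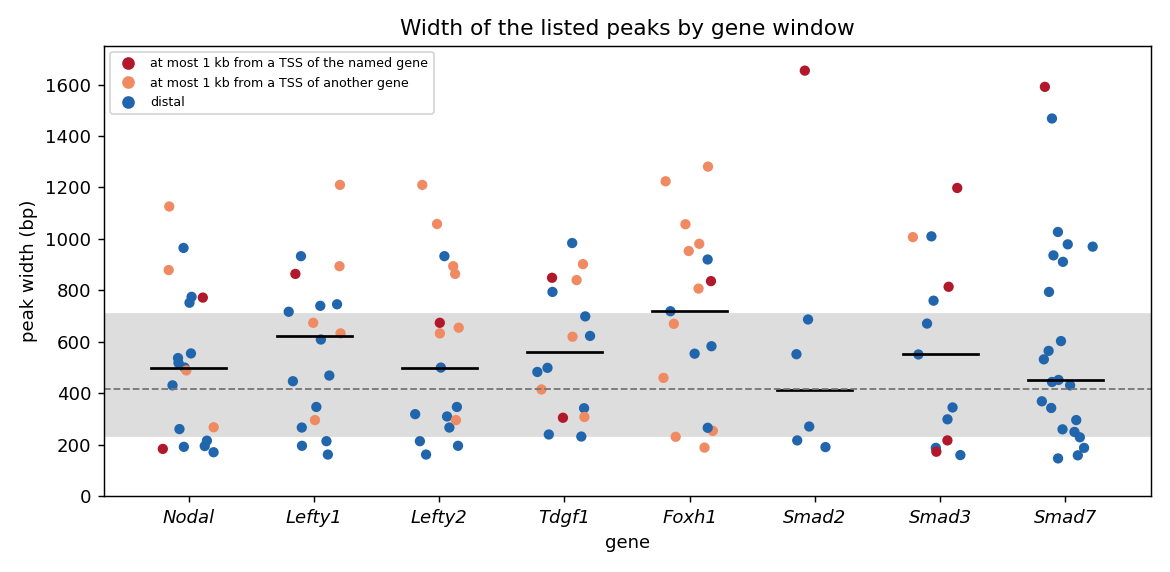
Width in bp of every listed peak in the window of each gene, coloured by its distance from a TSS; black bars are medians, and the grey band and dashed line are the quartiles and median of all listed peaks. The widest peaks were those at the 5′ ends of Smad2 (1654 bp) and Smad7 (1591 bp).

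Nodal, the ligand, lies at chr10:61417972-61425338 on the plus strand and had 19 listed peaks in its window. This was 17.7 per 100 kb of window, and 12.4% of protein-coding genes had at least as many peaks. The median gene had 10 peaks, or 6.97 per 100 kb. At the 5′ end there was a pair of peaks on either side of the TSS. The upstream one was narrow, 184 bp, and ended 34 bp before the annotated start (chr10:61417755-61417938). The other was 772 bp wide and lay in the first stretch of the gene (chr10:61418194-61418965), where its centre is intronic. A further peak inside the gene was centred in a coding exon at chr10:61422996-61423550, but it lay 5024 bp from the nearest TSS.

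Beyond this pair, 4 more peaks lay in a row upstream of Nodal. Their centres were 1937, 9602, 11758 and 12303 bp upstream. The far pair, printed above, was separated by 187 bp. The outer of the 2 (chr10:61405420-61405919, 500 bp) held the FOXH1 match TGTGTATT at chr10:61405790-61405797, and the inner one (chr10:61406107-61406322, 216 bp) held a TCF match 404 bp from it. Of the outer peak, 29% is soft-masked as repeat sequence, and of the inner 0%. The peak at 9602 bp (chr10:61408275-61408466, 192 bp) held the short SMAD motif at 3 places, and the searched 300 bp around its centre held a further match outside the peak. An upstream enhancer of Nodal that is bound by many pluripotency factors is known in ES cells, and its limits are not marked in the files. The widest distal peak of the window, 965 bp, was far downstream at chr10:61466120-61467084 and also held a TCF match. Peaks near Pald1 and Eif4ebp2, the other protein-coding genes of the window, made up 4 of the 6 promoter-proximal peaks.

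Tdgf1, the co-receptor gene, lies on the minus strand at chr9:110939603-110946158 and had 16 peaks, with at least as many at 22.5% of protein-coding genes. An 849-bp peak covered its 5′ end (chr9:110946139-110946987), and a KLF match (CCACACCC) lay in it. A narrow peak of 305 bp lay inside the gene at an internal TSS (chr9:110944296-110944600). Behind it the longest stretch without a listed peak in this window, 21035 bp, took in the 3′ part of the gene. Upstream, most peaks lay before or within Lrrc2, which is transcribed away from Tdgf1. An Lrrc2 TSS was near 3 of them, and 1 of these (chr9:110953634-110954473) held 2 TCF matches. The widest distal peak was intronic in Lrrc2 (chr9:110979436-110980419, 984 bp).

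The promoter sequences of Nodal, Tdgf1 and Smad3, 250 bases before the start and 50 after it, were in the RefSeq table of GRCm38.p6, so 3 of the 8 genes were matched. Lefty1, Lefty2, Foxh1, Smad2 and Smad7 were missing. A listed peak covered 184 of the 300 bases at Nodal, 270 at Tdgf1 and all 300 at Smad3. The 250 upstream bases are shown because a listed peak lies at or next to the starts of the ligand, its co-receptor and an effector. At Nodal the start itself lay in a gap between listed peaks. Capitals mark the short SMAD motif, found at Tdgf1 alone; 49.6% of 32851 promoters held it. None of the other motifs searched was in these 3 promoters. FOXH1 was in 1.82% of all promoters, OCT in 1.74%, SOX in 3.66%, TCF in 3.73% and OCT4::SOX2 in 0.408%.
Nodal promoter, chr10:61417722-61417971, plus strand: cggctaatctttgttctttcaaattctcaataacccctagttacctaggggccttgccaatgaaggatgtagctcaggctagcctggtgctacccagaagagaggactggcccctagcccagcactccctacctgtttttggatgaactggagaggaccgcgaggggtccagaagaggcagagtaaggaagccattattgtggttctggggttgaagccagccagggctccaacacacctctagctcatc
Tdgf1 promoter, chr9:110946159-110946408, minus strand: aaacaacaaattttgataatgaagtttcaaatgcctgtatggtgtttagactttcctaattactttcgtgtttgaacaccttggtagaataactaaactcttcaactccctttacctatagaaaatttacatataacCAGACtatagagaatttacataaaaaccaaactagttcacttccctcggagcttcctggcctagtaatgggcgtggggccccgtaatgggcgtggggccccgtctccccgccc
Smad3 promoter, chr9:63757995-63758244, minus strand: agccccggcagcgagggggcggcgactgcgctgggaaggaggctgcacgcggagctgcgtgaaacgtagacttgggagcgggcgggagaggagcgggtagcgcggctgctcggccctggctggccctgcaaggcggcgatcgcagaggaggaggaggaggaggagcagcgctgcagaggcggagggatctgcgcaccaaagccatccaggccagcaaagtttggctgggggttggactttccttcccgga

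The inhibitors Lefty1 (chr1:180935022-180938400) and Lefty2 (chr1:180893108-180899103) are paralogues that lie in the same direction on chromosome 1. Lefty1 had 18 peaks and Lefty2 had 17, and 15.2% and 18.6% of protein-coding genes had at least as many. These are not independent counts, since 12 peaks belong to both. They were the members without a listed peak within 1000 bp of the annotated 5′ end, so that 6 of 8 genes had 1, with a background of 66.1% over all protein-coding genes. At Lefty1 the nearest peak began 1325 bp downstream of the 5′ end (chr1:180936347-180937210, 864 bp), and at Lefty2 it began 1098 bp downstream (chr1:180894206-180894879, 674 bp). Both peaks lie inside the genes and count as promoter-proximal only because GENCODE places an internal TSS of a shorter transcript there.

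The peaks inside Lefty1 and Lefty2 share sequence. Over an alignment of 596 columns they were 89.6% identical, and 31.2% of the 24-mers of the Lefty1 peak (262 of 841) were found in the Lefty2 peak. A 24-mer was found more than once in the genome for 46.7% of the positions in the Lefty1 peak and 46.4% in the Lefty2 peak, whereas the median of the 117 peaks was 0% and 66 held no repeated 24-mer. In the Lefty1 peak the repeats included a 24-mer with 1225890 copies, so not all came from Lefty2. Read pairs that fall wholly within a stretch identical in both peaks, at most 161 bp long, have no unique position. How the alignment placed them is not given in the sources used here, and their part in these peaks was not tested.

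**Figure D3:**
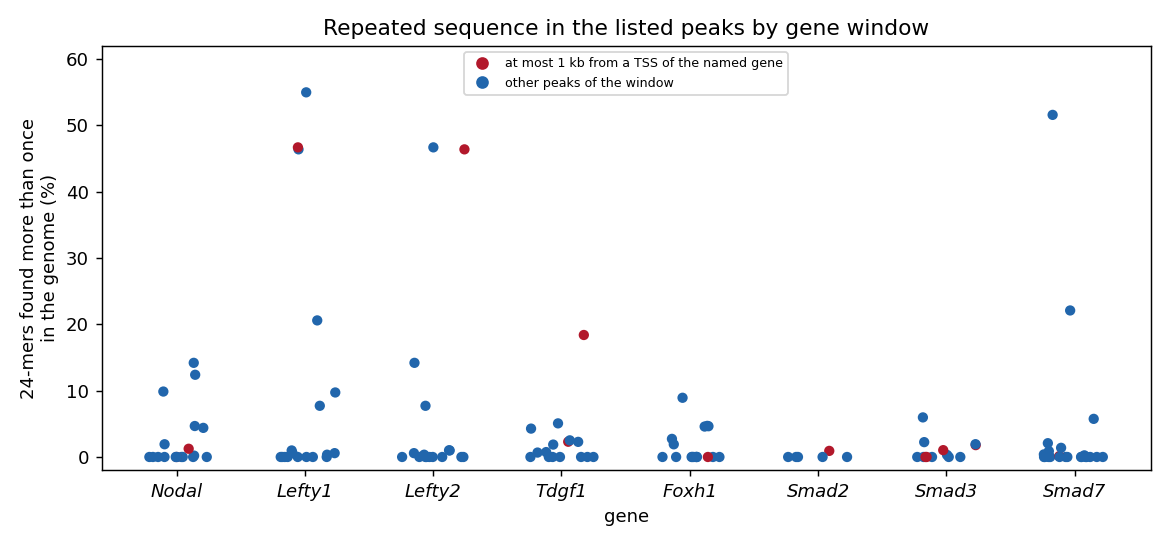
Share of the 24-mers of each listed peak that occur more than once in the genome, in percent, by gene window; peaks shared by Lefty1 and Lefty2 are drawn in both columns. Most peaks were at or near 0%, and the peaks inside Lefty1 (46.7%) and Lefty2 (46.4%) stood with an Ephx1 intron peak (55%) and a fully soft-masked Smad7 peak (51.6%).

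A group of 3 peaks lay just upstream of Lefty2. Their centres were 4285, 3224 and 3038 bp before its 5′ end. The outer peak (chr1:180888357-180889289) was 933 bp wide, the widest distal peak of both Lefty windows. It was also the only member peak with 2 FOXH1 matches, at chr1:180888893-180888900 and chr1:180888976-180888983, which start 83 bp apart. The second of these lay outside the central 300 bp. Searched over whole peaks, FOXH1 was matched in 4 member peaks (3.42%, against 3.58% of all listed peaks). The share of all listed peaks with 2 matches is not given here. The central part of the outer peak also held the short SMAD motif at 2 places. By a search of its consensus, the composite OCT4::SOX2 motif (CATTGT, 1 free base, ATGCAAAT) was not found in it at up to 2 mismatches. At up to 3 mismatches it gave the only match in the 117 peaks, at chr1:180888826-180888840, which starts 67 bp before the FOXH1 match. At that setting 3.39% of all listed peaks had a match. FOXH1-dependent enhancers upstream of Lefty2 are known from mouse embryos.

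Lefty1 had no such group. The peak inside the gene had 16378 bp without a listed peak on its upstream side, and the next peak downstream was that of the Tmem63a promoter, after a gap of 4664 bp. The 12 peaks that Lefty1 and Lefty2 share run from the group upstream of Lefty2 to the start of Tmem63a. Downstream peaks of the Lefty1 window lay in Tmem63a and Ephx1. One of these (chr1:180981169-180981914), in an Ephx1 intron, had the highest share of repeated 24-mers of all 117 peaks, 55%.

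Smad7, the inhibitory SMAD, had the most peaks of the 8 genes, 23 in the window of chr18:75367529-75395935. Only 5.27% of protein-coding genes had at least as many, and 3.7% had at least its 17.9 peaks per 100 kb. All but 1 of its peaks were distal, and Ctif was the only other protein-coding gene in the window. The promoter-proximal one was a 1591-bp peak over the 5′ end (chr18:75366396-75367986), which the gene shares with the start of Gm20544. It held the SMAD palindrome GTCTAGAC, to which SMAD3 and SMAD4 bind, 346 bp upstream of the 5′ end (chr18:75367176-75367183). A further palindrome lay in a 260-bp peak 27411 bp downstream of the gene (chr18:75423346-75423605). These 2 peaks were the only ones of the 117 with the palindrome, or 1.71%, against 0.298% of all listed peaks. Upstream, the widest distal peak of all the windows (chr18:75342034-75343501, 1468 bp, 65.5% GC) had its centre 24762 bp before the 5′ end and was followed, after gaps of 612 and 415 bp, by peaks of 369 and 444 bp.

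The receptor-regulated effectors Smad2 and Smad3 are long genes, and they had the lowest numbers of listed peaks per 100 kb among the 8. Smad2 (chr18:76241580-76310963) had 6 peaks, or 3.54 per 100 kb, the fewest of the 8, and 69.6% of protein-coding genes had at least as many. Its 5′ end had the widest peak of all 117 (chr18:76240950-76242603, 1654 bp, 71.8% GC). Within the gene, 51615 bp were without a listed peak, up to a 217-bp peak centred in a UTR exon near the 3′ end that held 3 matches to the short SMAD motif, with a further match outside the peak in the searched 300 bp. The widest distal peak, 687 bp, was upstream at chr18:76204458-76205144. No other protein-coding gene lay in the window.

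Smad3 (chr9:63646767-63757994, minus strand) had 13 peaks, or 6.15 per 100 kb, below the median gene on that scale and above it by count. Unlike at the other genes, where at most 3 did, 10 of its peaks overlapped the gene itself, and 8 of these had their centres in the first 41915 bp behind the 5′ end, next to a 64576-bp stretch with no listed peak. The 5′ end was covered by a 1198-bp peak (chr9:63757496-63758693). A pair of intronic peaks, separated by 186 bp, held a FOXH1 match in the narrower one (chr9:63726100-63726398) and a SOX match, CCATTGT, in the other (chr9:63726585-63727344). A second pair, near an internal TSS, held the only OCT match in the central 300 bp of any member peak (chr9:63742213-63742220) and, in its neighbour, a SOX match (chr9:63742983-63743155). The widest distal peak was upstream, at chr9:63803036-63804045 (1010 bp).

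Foxh1, which encodes the DNA-binding partner of the SMADs, is a short gene at chr15:76668225-76669948 (minus strand) in a gene-dense stretch with 10 other protein-coding genes. It had 17 peaks, and 18.6% of protein-coding genes had at least as many. Of the 17, 12 were promoter-proximal, but only 1 of them was near a Foxh1 TSS. That peak, 836 bp wide, covered the 5′ end (chr15:76669447-76670282). The other 11 lay near TSS of Ppp1r16a, Kifc2, Cyhr1, Recql4 and other neighbours. The widest of the 5 distal peaks, 920 bp, was centred in a coding exon of Lrrc24 (chr15:76715074-76715993).

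**Figure D4:**
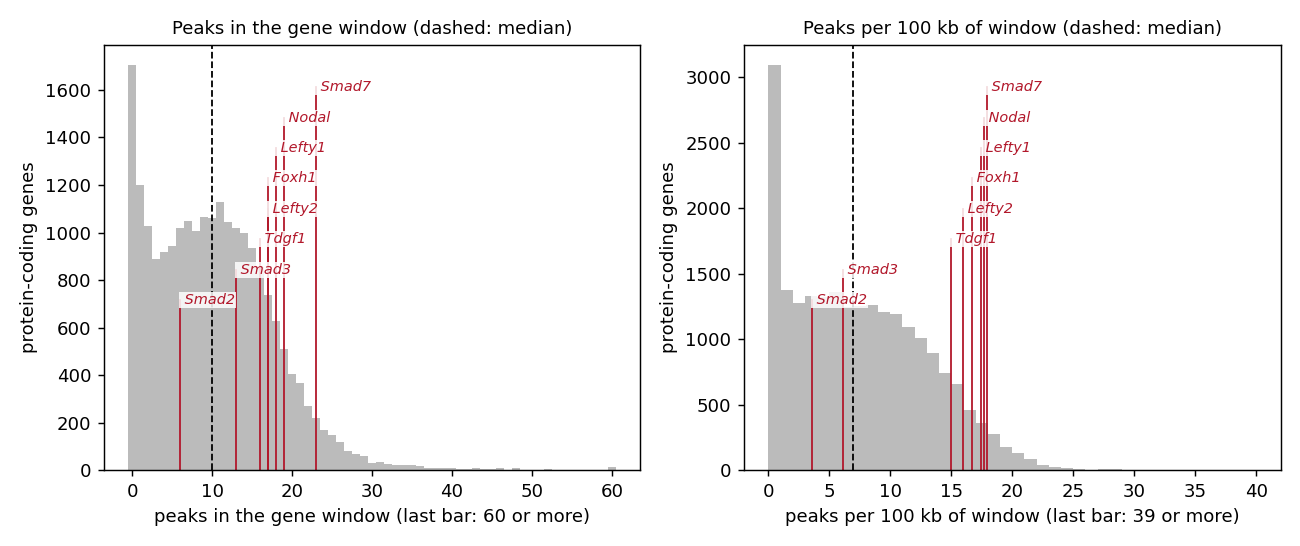
Number of listed peaks per gene window (left) and per 100 kb of window (right) for 21938 protein-coding genes (grey bars, dashed line at the median), with the 8 genes as red lines. By count 7 of the 8 lay above the median of 10 and Smad2, with 6, below it; per 100 kb Smad3 (6.15) also lay below the median of 6.97.

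Ordered by peaks per 100 kb, the genes ran Smad7 (17.9), Nodal (17.7), Lefty1 (17.4), Foxh1 (16.7), Lefty2 (16) and Tdgf1 (15), followed at a distance by Smad3 (6.15) and Smad2 (3.54). The first 6 differed by few peaks, and with 1 list there is no spread by which to separate them. When only the 50000 bp around the 5′ end were counted, the order of the groups held: 15 to 18 peaks at these 6 genes, 10 at Smad3 and 4 at Smad2, with a median of 7 for all protein-coding genes. At the edge of the windows the outermost peaks lay 40595 bp (Smad2) to 49240 bp (Lefty1) from the gene. The nearest peaks left out lay 50039 bp (Nodal) to 58532 bp (Smad3) away.

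The matches to 10 motifs in the central 300 bp of the peaks were counted in the same way for all listed peaks. The motif of OCT4 with SOX2 was in 0 of the 117 member peaks and in 0.456% of all. At so small a share, 0 matches in 117 peaks do not show a lack of the motif. OCT alone, which the composite motif contains, was in 1 (0.855% against 1.71%). SOX, CCATTGT, which overlaps the SOX part of the composite, was in 8 (6.84% against 6.43%). FOXH1 was in 3 (2.56% against 2.28%), and in 0 together with SOX, OCT or OCT4::SOX2 (0.3% of all). The short SMAD motif was in 62 (53% against 53.7%), so that its presence in a peak is common everywhere. TCF was in 4 (3.42% against 5.08%), of which 3 were in the Nodal window, 1 of these with its match outside the peak. Over whole peaks TCF was in 7 (5.98% against 7.89%), also in the Foxh1 window. KLF was in 9 (7.69% against 6.39%). ESRRB, TCAAGGTCA, was in 0 (1.93% of all), and over whole peaks in 2 (1.71% against 2.82%). At this share too, 0 of 117 does not show a lack of the motif. The shares of FOXH1, SOX, KLF and the short SMAD motif were thus near those of all peaks. In peaks narrower than 300 bp the searched stretch runs past the peak, and the match lay only in that margin for 4 of the peaks counted for the short SMAD motif, 2 for KLF and 1 each for TCF and CTCF.

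The insulator protein CTCF was matched, at up to 1 mismatch, in 9 member peaks (7.69% against 10.6%). The share of all listed peaks with an exact match is not given here, so no excess or lack can be read from exact matches. In 3 of the 9 member peaks the match was free of mismatches. These lay 16343 to 18561 bp from Tdgf1, Nodal and Lefty2. They read 5′ to 3′ on the strand of the match, with all bases in capitals as the match itself.
Lefty2 window (upstream), chr1:180874179-180874192, plus strand: CCACTAGAGGGCGC
Tdgf1 window (downstream), chr9:110922949-110922962, plus strand: CCAGTAGGGGGCGC
Nodal window (upstream), chr10:61399573-61399586, minus strand: CCACTAGGTGGCGC

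**Figure D5:**
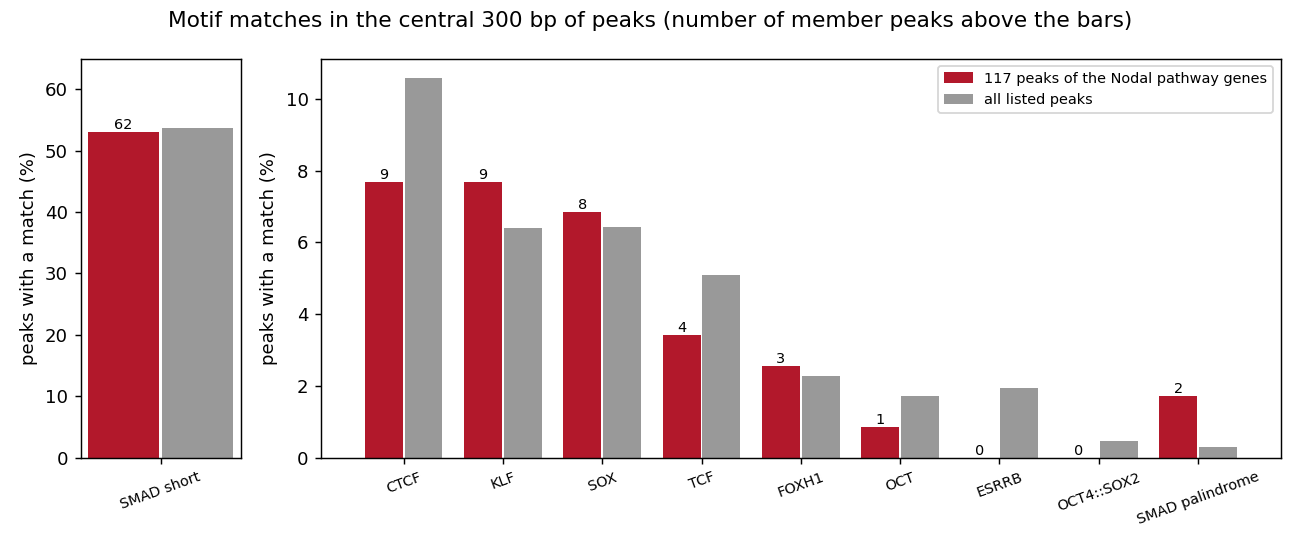
Share of peaks, in percent, with a match to each motif in the central 300 bp, for the 117 member peaks (red, number of peaks above the bar) and for all 102373 listed peaks (grey). The bars for the short SMAD motif (53% and 53.7%) have their own axis, and 0 member peaks matched ESRRB or OCT4::SOX2.

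Over the whole peak instead of its centre, the OCT motif was found in 6 of 117 member peaks (5.13%), against 2.56% of all listed peaks. Member peaks were also wider, as given above, and the part of width in this count was not tested. These 6 lay in the windows of Lefty1 and Lefty2 (1 shared peak), Tdgf1, Foxh1, Smad2, Smad3 and Smad7. At Tdgf1 it was the 483-bp peak upstream of the promoter (chr9:110947901-110948383), and at Smad2 the promoter peak itself. The Nodal window had none.

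Other genes of the pathway were taken from a list by role. The 32 genes had a median of 13 peaks in the same window, against 17 for the 8 genes above and 10 for all protein-coding genes, and 29 of the 32 had a listed peak within 1000 bp of their 5′ end, against 66.1% of all protein-coding genes. The ligands and convertases (6 genes) had a median of 16. Gdf3, a ligand expressed with Nodal in early embryos, had 17, and Inhba, an activin subunit, had 2. Among the 7 receptors and co-receptors the median was 8, from 2 at Acvr1c to 27 at Acvr1b, which encodes the type I receptor ALK4, and all 7 had a peak at the 5′ end. Effectors and cofactors (5 genes) had a median of 13, with 21 at Trim33 and 9 at Smad4.

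The 9 inhibitors outside the 8 genes had a median of 16 peaks. Pmepa1, which sequesters SMAD2 and SMAD3, had 23, and Cer1, a secreted Nodal antagonist, had 2, the nearer one 25122 bp from its 5′ end. The genes without a peak at the 5′ end were Furin, which encodes a convertase of Nodal, Cer1 and Ppm1a. For comparison, 11 genes of the BMP branch, which signals through SMAD1, SMAD5 and SMAD9, had a median of 13 peaks. They ranged from 6 at Smad1 to 24 at Id1. All 11 had a peak at the 5′ end, against 66.1% of all protein-coding genes.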

How the data were processed

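The authors aligned paired reads to GRCm38 with STAR 2.6.1c, removed duplicates with Picard, called peaks with MACS2 2.1.1.20160309 in paired-end mode and merged those of the dox-treated samples with bedtools. The deposited file has 3 columns, which place each merged peak by chromosome, start and end. The coordinates are the only values used, and other outputs were not analysed here.

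Starts were counted from 1. Gene and TSS positions came from GENCODE M21, sequence from RefSeq GRCm38.p6. Peaks within 50000 bp of a gene were counted for every protein-coding gene. Motifs were searched on both strands in the central 300 bp of every peak (CTCF at up to 1 mismatch, OCT4::SOX2 at up to 2 over 14 fixed bases, the others exactly), and 24-mers were counted over the genome. The motif search was tested on simulated data. The study searched motifs with the HOMER software, so this search by consensus can miss sites that the study counted. The genes, lists and rules were chosen with earlier results of these data known. Named peaks were the nearest to each 5′ end, the widest distal peak of each window, and those holding FOXH1 with SOX or OCT, of which there were 0. All other peaks named by position, and all sequences except the promoters, were chosen after their values were seen. The limma comparison of the constructs was not run, since the list has no values per sample. Some genes and sequences of the lists are not reported here. Alternatives changed the window, the peak filters, the TSS distance and the motif settings. Python 3.11.15 was used with pandas 2.3.3, numpy 2.4.6 and matplotlib 3.10.9.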

Additional observations from a re-analysis of the deposited data

How the results depend on the processing

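The number of peaks at the 8 genes followed the window: 62 within 20000 bp and 200 within 100000 bp, against 117. It was 103 around the 5′ ends alone, 84 for peaks of at least 300 bp, 116 after joining peaks at most 100 bp apart, and 116 without peaks over 5000 bp or mostly soft-masked. Promoter-proximal peaks numbered 31 to 48 under the other TSS settings, against 40. FOXH1 was matched in 3 peaks (2.56%, against 2.28% of all listed peaks) and in 0 with its letters reversed (1.91% of all). At up to 1 mismatch it was matched in 32 (27.4%, against 38.5%). The OCT4::SOX2 count rose from 0 to 1 at up to 3 mismatches (0.855%, against 3.39% of all listed peaks). It stayed 0 at 1 mismatch (0.0381% of all), with reversed letters (0.0586%), in the central 200 bp (0.324%) and over whole peaks (0.677%). These shares are so small that a count of 0 in 117 peaks tests little. Of 24 settings of the other motifs, 9 moved the count by more than 1.5 times, and the reversed short SMAD motif has the same letters as its reverse, so it tests nothing. The share of genes with at least as many peaks rose from 35.9% by count to 54.7% per 100 kb for Smad3, and was lower per 100 kb for Lefty1 (15.2% to 4.62%), Foxh1 (18.6% to 5.78%), Nodal (12.4% to 4.03%), Lefty2 (18.6% to 7.25%) and Tdgf1 (22.5% to 10.3%). No paired analysis was possible because replicates were merged into 1 set of coordinates. The list has no depth or score, so strong and weak peaks count alike.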
